A study of Mus musculus with 53 samples.

Results

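Crypt stem cell markers are described here as a set of 10 genes, Lgr5, Ascl2, Olfm4, Smoc2, Msi1, Prom1, Tnfrsf19, Sox9, Cd44 and Ephb2, chosen by name as widely used markers of stem and progenitor cells at the base of the intestinal crypt. Each corresponds to 1 row of the raw count matrix, so that the set makes up 10 of its 55421 gene rows. RNA-seq was carried out on 53 libraries of whole mouse tissue, 29 from proximal colon and 24 from small intestine (SI), which fall into 11 groups. All groups, WT included, carry VilCreER, a tamoxifen-inducible Cre recombinase under the Villin promoter, which restricts recombination to the intestinal epithelium while the libraries also hold stroma, muscle, nerve and blood cells. The proximal colon series compared VilCreER+ BrafV600E/+ Alk5fl/fl mice, abbreviated BA, with VilCreER+ Alk5fl/fl mice, abbreviated A, and with VilCreER+ mice, abbreviated WT. Alk5 is the TGFβ type I receptor encoded by Tgfbr1, and BrafV600E is an oncogenic kinase allele.

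Primary BA tumours (n = 4) were set against WT proximal colon (n = 3). Tissue taken on day 30 (d30) after induction came from BA mice (n = 5), BA mice given ampicillin (1 g/L), neomycin trisulphate (1 g/L), vancomycin (500 mg/L) and metronidazole (1 g/L) in the drinking water from the day after tamoxifen (n = 5), A mice (n = 4), A mice given sulindac (0.4 g/L) for the first 14 days (n = 4), and WT mice (n = 4). Each d30 group was compared with the same d30 WT libraries. In the small intestine, VilCreER+ APCfl/fl tissue on day 4 (n = 10) was compared with day 4 WT tissue (n = 6), and VilCreER+ Apcfl/+ primary tumours (n = 5) with WT SI (n = 3). The Apcfl/+ tumours and their WT SI were on an inbred C57BL6/J background, whereas all other groups were on a mixed C57BL/6J background. Per the study's methods the mice were adult at induction and replicates were independent animals. The labels give no age per sample and do not tie the tumours to mice. Library totals ran from 516985 to 32824795 counts with a median of 18356939, and a gene with 3 counts at that depth stands at about 0.16 CPM (counts scaled to a common library size).

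Crypt base columnar cells at the bottom of the crypt renew the intestinal epithelium and depend on Wnt ligands amplified by R-spondins, which bind receptors of the Lgr family. Several of the markers belong to this Wnt-dependent compartment: Lgr5 is an R-spondin receptor, Ascl2 a transcription factor that maintains stem cell fate, Tnfrsf19 (Troy) a tumour necrosis factor receptor family member, and Ephb2 the ephrin receptor that positions cells along the crypt. Others reach further, since Sox9 also acts in Paneth and transit-amplifying cells, Prom1 (CD133) is found over much of the crypt epithelium, Cd44 is a hyaluronan receptor also carried by leukocytes and stroma, and Smoc2 is a secreted matrix protein made by stromal cells as well.

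Promoter windows from RefSeq (GRCm38.p6, 250 bases before to 50 after the start site) were found for 6 of the 10 genes (Ascl2, Olfm4, Prom1, Tnfrsf19, Cd44 and Ephb2), with 8 windows in all. No entry was matched for Lgr5, Smoc2, Msi1 and Sox9. Each window was searched on both strands for the core motif of TCF/LEF factors (CTTTGAT, or ATCAAAG), of TEAD factors (GGAATG, or CATTCC) and of AP-1 (TGANTCA), which are the DNA-binding partners of Wnt, YAP and MAPK signalling, respectively. The AP-1 motif reads the same on both strands, and no member window held more than 1 motif. The windows below are those of the members in which any motif was found, a Tnfrsf19 window with TCF/LEF and the 2 Prom1 windows with AP-1, together with the window of Ascl2, the member that was lower in every BA comparison. Capitals mark the motif.
Ascl2, chr7:142969215-142969514, minus strand, no motif: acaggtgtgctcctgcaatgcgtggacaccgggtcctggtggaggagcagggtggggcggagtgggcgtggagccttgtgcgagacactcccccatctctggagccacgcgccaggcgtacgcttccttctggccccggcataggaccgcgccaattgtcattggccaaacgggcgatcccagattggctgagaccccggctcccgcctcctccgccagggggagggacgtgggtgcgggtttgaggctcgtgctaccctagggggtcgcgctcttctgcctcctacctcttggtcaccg
Tnfrsf19, chr14:61037938-61038237, minus strand, TCF/LEF in capitals: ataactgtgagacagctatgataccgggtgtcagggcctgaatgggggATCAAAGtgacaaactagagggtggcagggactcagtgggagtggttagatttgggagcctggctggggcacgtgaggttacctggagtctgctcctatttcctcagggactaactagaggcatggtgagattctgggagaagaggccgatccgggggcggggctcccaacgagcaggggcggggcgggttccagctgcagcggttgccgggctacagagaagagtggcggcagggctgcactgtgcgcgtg
Prom1, chr5:44101687-44101986, minus strand, AP-1 in capitals: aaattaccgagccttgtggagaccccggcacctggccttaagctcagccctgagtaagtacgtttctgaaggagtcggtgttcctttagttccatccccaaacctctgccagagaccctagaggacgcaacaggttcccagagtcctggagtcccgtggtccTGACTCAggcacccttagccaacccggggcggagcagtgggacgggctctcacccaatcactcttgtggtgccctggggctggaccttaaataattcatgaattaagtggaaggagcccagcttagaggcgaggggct
Prom1, chr5:44094719-44095018, minus strand, AP-1 in capitals: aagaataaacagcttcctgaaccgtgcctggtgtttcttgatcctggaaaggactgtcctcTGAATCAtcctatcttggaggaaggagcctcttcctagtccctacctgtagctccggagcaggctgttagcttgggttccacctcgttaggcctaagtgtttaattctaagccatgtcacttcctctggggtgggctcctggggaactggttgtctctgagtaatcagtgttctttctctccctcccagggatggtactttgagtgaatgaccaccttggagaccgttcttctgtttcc
The TCF/LEF motif was present in 1 of the 8 member windows and in 3.73% of all 32851 windows in the table. The AP-1 motif was present in 2 of the 8 and in 7.81% of all windows. The TEAD motif was present in 0 of the 8 and in 14.7% of all windows. The other Tnfrsf19 window, the Olfm4 window and those of Cd44 and Ephb2 held none of the 3 motifs, which says only that these letters are not in these 300 bases.

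Several libraries stood apart before any marker was considered. BA tumour 2 held small intestinal Paneth cell transcripts (Paneth list summed to 460.7 CPM against 12.6 to 249.2 CPM in the other tumours). Its mitochondrial share was 11.7% of counts, against 2.12% to 2.59% in the other tumours and 5.43% at most in any other library. Apcfl/+ tumour 2 was near 0 for small intestinal enterocyte genes (29.9 CPM against 4497.2 to 6992.3 CPM) and carried the colonocyte gene Car1. These values go against its small intestinal label. Its Paneth list sum of 1188.4 CPM goes with that label, being above the 460.7 CPM of BA tumour 2. Its Car1 level of 167.1 CPM was below the 1044 CPM of BA tumour 2, the lowest of the colon libraries. The markers of its bowel region were thus mixed, and the member calls resting on it are also given without it. Replicate 3 of d30 BA with antibiotics had a fibroblast list sum of 7396.6 CPM against 1077.7 to 1540.9 CPM in its group. The small intestinal samples otherwise carried the enterocyte genes of their labels, and all the proximal colon groups carried the colonocyte gene Car1. Transcripts of the targeted genes cannot check the genotypes here, because whole-gene counts do not separate recombined alleles. Apc stood at 125 to 174 CPM in 9 of the 10 day 4 APCfl/fl libraries and at 34.2 CPM in replicate 8, against 64 to 97.3 CPM in day 4 WT. Ddx3y, a Y-linked gene, exceeded 10 CPM in all d30 libraries, in 3 of the 4 BA tumours, in 0 of the 3 WT proximal colons, in 1 of the 5 Apcfl/+ tumours and in 3 of the 3 WT SI. Gm13394 was over 10 CPM in 0 of the 4 d30 WT libraries and in all other d30 libraries. This library difference cannot be told apart from genotype in comparisons with d30 WT, but it does not separate d30 BA from d30 A. Gm13394 likewise exceeded 10 CPM in 3 BA tumours against 0 of the 3 WT proximal colons, and in 0 of the 5 Apcfl/+ tumours against 3 of the 3 WT SI.

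The question put to the BA tissues was which crypt markers fall and which rise. Across BA tumours, d30 BA and d30 BA with antibiotics, each relative to its own WT, 4 members (Ascl2, Tnfrsf19, Lgr5 and Msi1) were lower in at least 1 comparison and higher in none, 5 (Ephb2, Cd44, Prom1, Smoc2 and Sox9) were higher in at least 1 and lower in none, and Olfm4, tested in BA tumours only, was not called. No member was called in both directions. In BA tumours, 5 of the 10 members passed an adjusted p of 0.05 (edgeR's quasi-likelihood test with Benjamini-Hochberg adjustment over all genes tested, used throughout), 3 higher and 2 lower, where 13.2% of all 19188 genes tested were called (7.46% higher and 5.71% lower). The groups did not overlap for 5 of the 10, against 27.5% of all genes. In d30 BA, 8 of the 9 members tested were called, 4 higher and 4 lower, where 55.1% of 17471 genes were called (25.8% higher and 29.3% lower), and the groups did not overlap for 7 of the 9, against 45.4% of all genes. In d30 BA with antibiotics, 7 of 9 were called, 4 higher and 3 lower, where 39.6% of 17569 genes were called (21.8% higher and 17.8% lower), and the groups did not overlap for 5 of the 9, against 32.8% of all genes. The median log2 fold change of the members was 0.94 in BA tumours, 0.19 in d30 BA and -0.15 with antibiotics, beside medians of 0.03, -0.03 and 0.01 over all genes. Members were thus called in both directions in each comparison, and the d30 comparisons share their 4 WT libraries. In bulk RNA, fewer cells of a type and less RNA per cell cannot be told apart.

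**Figure D1:**
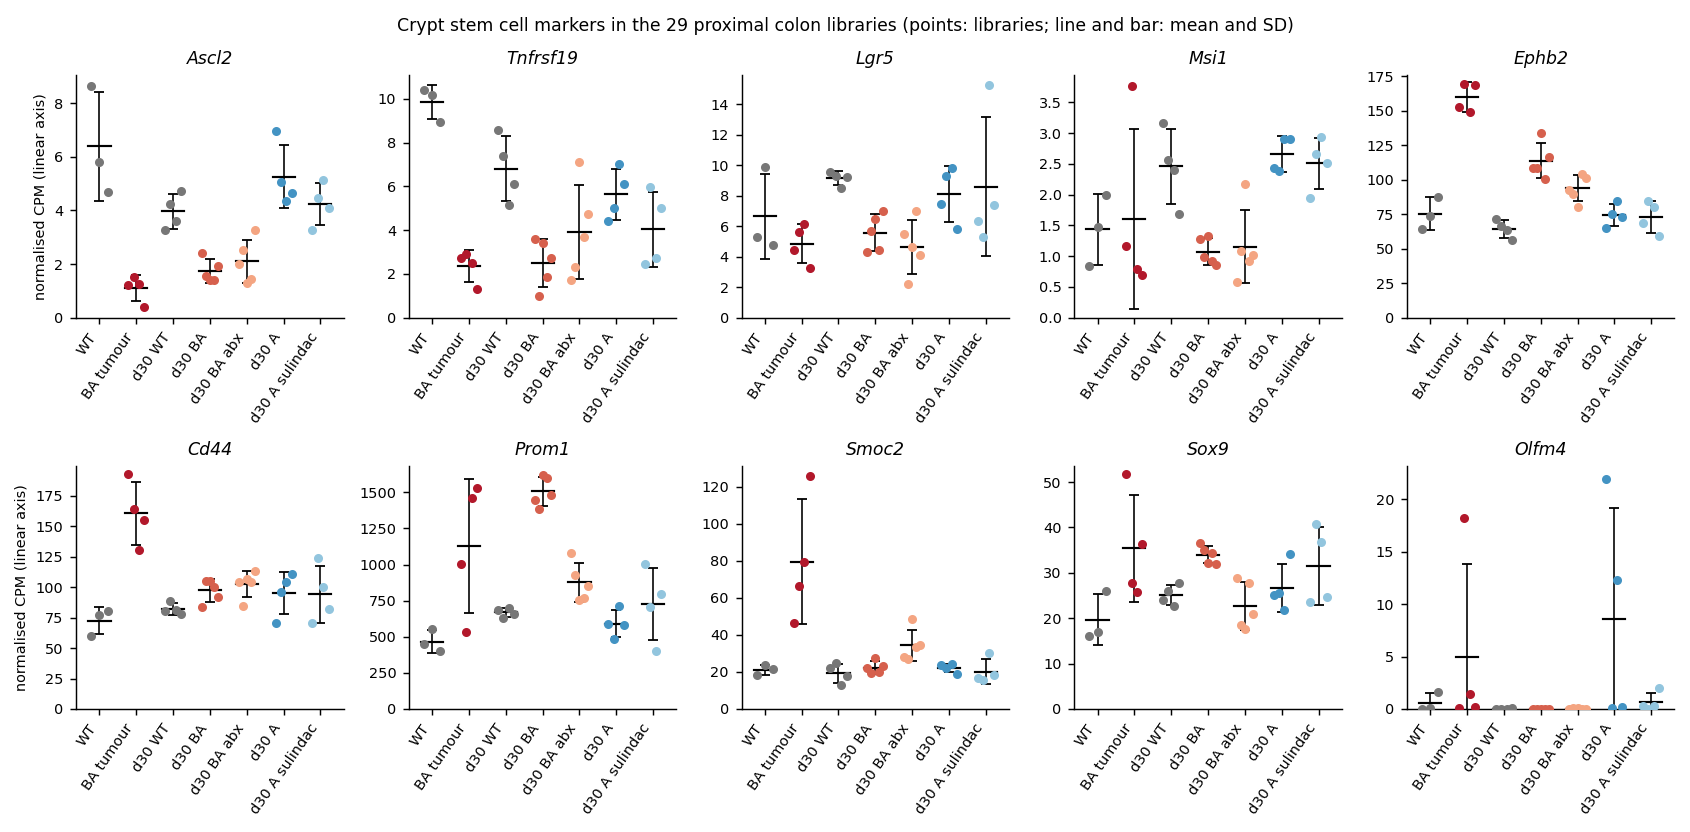
Normalised CPM (linear axes from 0) of each of the 10 markers in the 29 proximal colon libraries, 1 point per library, with the group mean and SD as line and bar; abx stands for antibiotics. Ascl2 and Tnfrsf19 sit low in BA tumours and d30 BA, Ephb2 and Prom1 sit high in d30 BA, and Olfm4 is above 10 CPM in 3 libraries only.

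Of the members that fell, the transcription factor Ascl2 (chr7:142966829-142969264 in GRCm38) did so in every BA comparison. Its normalised level (CPM scaled by library size and composition) was 1.22, 1.51, 1.25 and 0.405 CPM in BA tumours 1 to 4 and 8.66, 5.82 and 4.69 CPM in WT proximal colon, so that every tumour lay below every WT library. The log2 fold change, given here and below ± its standard error, was -2.60 ± 0.47 (adjusted p = 0.00917). On d30 the gene was at 2.43, 1.54, 1.41, 1.42 and 1.94 CPM in BA mice and 3.28, 4.25, 3.62 and 4.74 CPM in WT mice, again without overlap (log2 fold change -1.19 ± 0.20, adjusted p = 0.000486). With antibiotics it was at 2, 2.52, 1.30, 1.44 and 3.26 CPM, all below the lowest WT library, and the log2 fold change was -0.92 ± 0.27 (adjusted p = 0.0195). Without d30 WT replicate 4 the adjusted p of that last comparison was 0.0571.

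Tnfrsf19 (chr14:60963875-61046490), the Troy receptor, followed Ascl2 in tumours and in d30 BA tissue. It was at 2.75, 2.91, 2.49 and 1.30 CPM in BA tumours against 10.4, 10.2 and 8.95 CPM in WT proximal colon, for a log2 fold change of -2.09 ± 0.33 (adjusted p = 0.00539). In d30 BA it was at 3.58, 0.986, 3.40, 1.86 and 2.73 CPM against 8.58, 7.39, 5.17 and 6.11 CPM in d30 WT, a log2 fold change of -1.46 ± 0.30 (adjusted p = 0.00178). In neither case did the groups overlap. With antibiotics the libraries spread from 1.74 to 7.11 CPM and overlapped WT, and the log2 fold change of -0.77 ± 0.37 did not pass (adjusted p = 0.127). The highest of these 5 libraries was replicate 3, the one rich in fibroblast transcripts; without it the log2 fold change was -1.14 (adjusted p = 0.00952).

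Lgr5 (chr10:115450311-115587780), the R-spondin receptor that defines crypt base columnar cells, was lower in d30 BA tissue and was not called in tumours. It was at 4.32, 5.67, 6.46, 4.46 and 7.03 CPM in d30 BA and at 9.57, 9.28, 8.50 and 9.22 CPM in d30 WT, which did not overlap (log2 fold change -0.72 ± 0.15, adjusted p = 0.00195). With antibiotics it was at 5.48, 2.18, 4.61, 6.97 and 4.09 CPM, likewise below every WT library (log2 fold change -0.96 ± 0.26, adjusted p = 0.0148). BA tumours had 4.47, 5.60, 6.12 and 3.28 CPM, and WT proximal colon 5.27, 9.88 and 4.78 CPM. These ranges overlapped, and the tumour log2 fold change of -0.46 ± 0.36 (adjusted p = 0.45, 95% interval -1.16 to 0.24) was not called. WT proximal colon was itself lower than d30 WT in 2 of its 3 libraries, and the change in tumours did not differ detectably from that on d30 (difference of log2 fold changes 0.25 ± 0.36, adjusted p = 0.687). Both values turn on WT proximal colon replicate 2, the highest of its group: without it the tumour log2 fold change was -0.09 (adjusted p = 0.908) and the difference 0.71 (adjusted p = 0.144). Leaving out any other library gave -0.64 to -0.30 and 0.04 to 0.44.

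Msi1 (chr5:115429599-115455698), an RNA-binding protein of progenitor cells, was scarce in colon, at 1.28, 0.986, 1.33, 0.929 and 0.848 CPM in d30 BA against 3.17, 2.57, 2.40 and 1.69 CPM in d30 WT. All BA libraries were below all WT libraries, and the log2 fold change was -1.21 ± 0.23 (adjusted p = 0.000964). With antibiotics the log2 fold change was -1.05 ± 0.35 (adjusted p = 0.0378), with 4 libraries at 0.58 to 1.09 CPM and replicate 3 at 2.17 CPM, which overlapped WT. This call was lost without antibiotics replicate 2, 4 or 5 or d30 WT replicate 1, 2 or 3 (adjusted p up to 0.0986), whereas without antibiotics replicate 3 the log2 fold change was -1.45 (adjusted p = 0.00145). In BA tumours, 3 libraries were at 0.689 to 1.17 CPM and tumour 2 at 3.77 CPM, and the log2 fold change against WT proximal colon was 0.10 ± 0.65 (adjusted p = 0.943), or -0.73 (adjusted p = 0.292) without tumour 2.

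Among the members that rose, Ephb2 (chr4:136647539-136835988), the ephrin receptor of the crypt gradient, was called in every BA comparison. BA tumours had 152.7, 169.1, 148.9 and 168.9 CPM and WT proximal colon 64.3, 73.9 and 87.8 CPM, which did not overlap (log2 fold change 1.07 ± 0.19, adjusted p = 0.00888). In d30 BA it stood at 108.8, 108.6, 133.9, 100.4 and 116.8 CPM against 71.5, 66.3, 63.2 and 56.3 CPM in WT (log2 fold change 0.81 ± 0.09, adjusted p = 3.45e-05). With antibiotics it stood at 92.6, 90.0, 80.4, 104.2 and 101.4 CPM, also above every WT library (log2 fold change 0.55 ± 0.09, adjusted p = 0.000807).

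Cd44 (chr2:102811141-102901665), the hyaluronan receptor, was higher in tumours, at 192.9, 164.3, 130.3 and 155.3 CPM against 59.8, 77.5 and 80.4 CPM in WT proximal colon (log2 fold change 1.12 ± 0.20, adjusted p = 0.00892). On d30 the differences were small, with BA at 84.1 to 105.2 CPM, antibiotics at 84.3 to 113.4 CPM and WT at 78.0 to 88.7 CPM, so that both ranges overlapped WT. The log2 fold changes were 0.23 ± 0.08 (adjusted p = 0.0279) and 0.33 ± 0.09 (adjusted p = 0.0155). The d30 BA call was lost without d30 BA replicate 2, 3 or 4 or d30 WT replicate 1, 3 or 4 (adjusted p up to 0.0777), that with antibiotics without d30 WT replicate 4 (adjusted p = 0.0513), and scaling by library totals gave log2 fold changes of 0.08 (adjusted p = 0.413) and 0.22 (adjusted p = 0.124). With all 5 d30 groups in 1 fit neither passed (adjusted p = 0.169 and 0.0889).

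Prom1 (chr5:43993620-44102032), the CD133 glycoprotein, had the highest level per kb of exon of any member in the colon. It was at 1444.4, 1388.2, 1622.3, 1602.8 and 1482.1 CPM in d30 BA and at 683.2, 632.4, 701.5 and 659.8 CPM in d30 WT, which did not overlap (log2 fold change 1.16 ± 0.07, adjusted p = 3.36e-07). With antibiotics it was at 1082.7, 929.3, 755.2, 766.9 and 853.5 CPM, above WT without overlap (log2 fold change 0.39 ± 0.10, adjusted p = 0.0113), a call that was lost with all 5 d30 groups in 1 fit (0.38, adjusted p = 0.11). BA tumours had 1003.3, 529.9, 1460.0 and 1529.7 CPM against 447.1, 554.2 and 400.1 CPM in WT proximal colon. Tumour 2, the library with the high mitochondrial share, lay within the WT range, and the log2 fold change of 1.26 ± 0.42 (adjusted p = 0.0811) was not called, whereas without tumour 2 it was 1.48 (adjusted p = 0.00883). Exons of the antisense gene Gm16401 overlap those of Prom1, and 6.71% of the 36-base words of Prom1 exons are shared, so that a part of these reads could belong to either gene.

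The secreted protein gene Smoc2 (chr17:14279506-14404790) rose in tumours and with antibiotics and was not called in untreated d30 BA tissue. It was at 46.4, 66.3, 79.5 and 125.6 CPM in BA tumours against 18.4, 23.7 and 21.4 CPM in WT proximal colon, without overlap (log2 fold change 1.90 ± 0.34, adjusted p = 0.00878). In d30 BA it was at 21.9, 19.3, 27.7, 19.7 and 23.3 CPM, within reach of d30 WT at 22.3, 24.6, 13 and 17.7 CPM (log2 fold change 0.19 ± 0.17, adjusted p = 0.366). With antibiotics it was at 27.8, 27.1, 48.4, 33.5 and 34.6 CPM, above every WT library (log2 fold change 0.83 ± 0.23, adjusted p = 0.0151). Its highest antibiotics value was in replicate 3, without which the log2 fold change was 0.65 (adjusted p = 0.0138).

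Sox9 (chr11:112782224-112787760), the crypt base transcription factor, was raised modestly and evenly in d30 BA, at 36.5, 35.1, 32.2, 34.4 and 32 CPM against 24, 25.9, 22.8 and 27.8 CPM in WT (log2 fold change 0.43 ± 0.08, adjusted p = 0.000816), with no overlap. With antibiotics it was at 28.8, 18.4, 17.6, 27.8 and 20.9 CPM, around the WT level (log2 fold change -0.15 ± 0.15, adjusted p = 0.464). In BA tumours it was at 51.7, 27.7, 25.7 and 36.4 CPM against 16, 17.0 and 26.1 CPM in WT proximal colon, and the log2 fold change of 0.81 ± 0.28 (adjusted p = 0.0899) was not called.

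**Figure D2:**
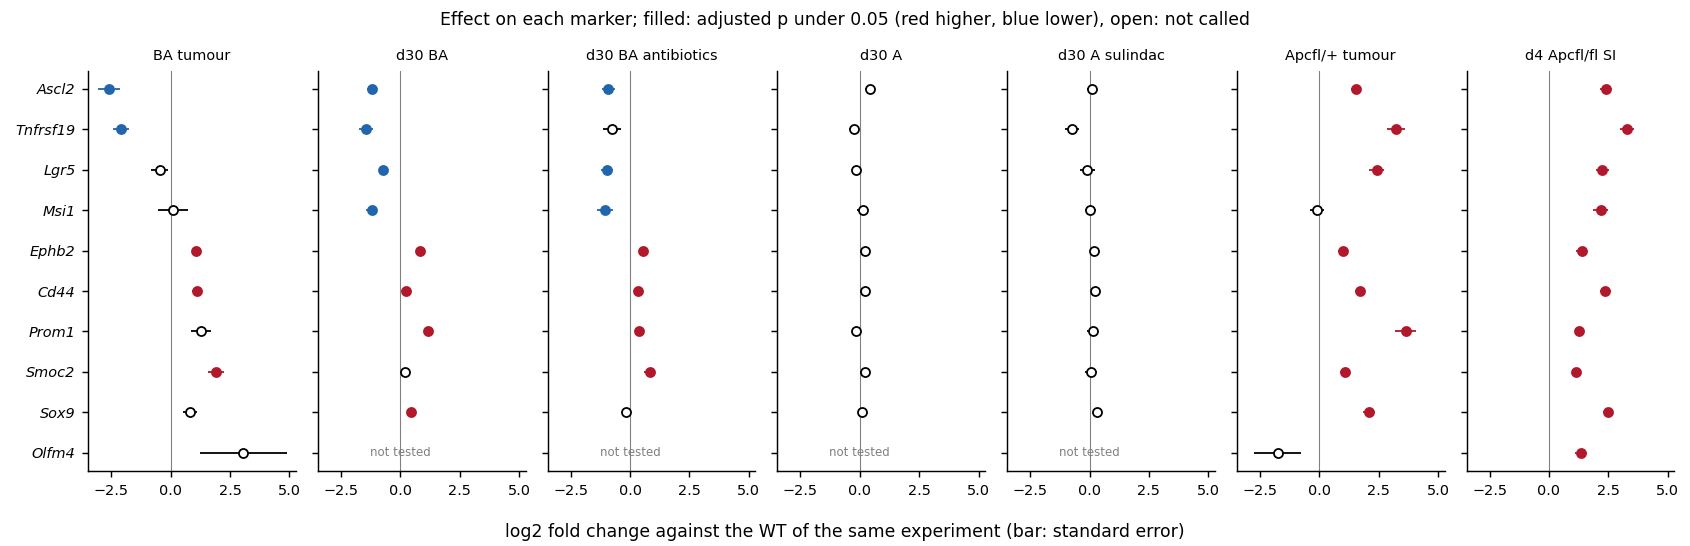
Log2 fold change of each marker against the WT of its own experiment (x axis) with its standard error as bar, for 7 comparisons; filled points passed an adjusted p of 0.05 (red higher, blue lower) and open points did not. The 3 BA panels split into blue and red (4 lower and 4 higher in d30 BA), no point is filled in either A panel, and all 10 points are filled red in the day 4 panel.

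Tissue content moved with these comparisons. In d30 BA, 7 of the 8 epithelial markers were higher (Krt18 at 2.72 and Epcam at 0.73 on the log2 scale, Cdx2 at -0.08 and not called), and the epithelial list summed to 18248.3 to 21503.7 CPM against 8991.4 to 10873.1 CPM in WT. The summed smooth muscle list was 939.9 to 3927.9 CPM against 4881.4 to 5625.5 CPM, 4 of its 6 genes lower, and all 4 enteric glia and neuron genes were lower. Of the 6 fibroblast genes 5 were lower and 0 higher. The epithelial list had a median log2 fold change of 0.73 in d30 BA. The 4 members called higher were at 1.16 (Prom1), 0.81 (Ephb2), 0.43 (Sox9) and 0.23 (Cd44). The 4 called lower ran from -1.46 for Tnfrsf19 to -0.72 for Lgr5. In d30 BA with antibiotics, 7 of the 8 epithelial genes were likewise higher than in WT, with a list median of 0.81. Lower were 2 of the 4 enteric glia and neuron genes and 3 of the 5 proximal colonocyte genes, of which 1 was higher. None of the smooth muscle or fibroblast genes was called there. In BA tumours the epithelial sum (8801.1 to 13532.7 CPM) covered that of WT (9631.2 to 12432.8 CPM), while the fibroblast sum was 4435.3 to 5312.0 CPM against 1474.5 to 2463.5 CPM and all 4 neutrophil genes, 3 of the 6 immune genes and 2 of the 3 endothelial genes were higher, with 0 of the 6 proliferation genes called. The proximal colonocyte sum was lower, at 1137.1 to 5233.9 CPM against 12200.4 to 24974.6 CPM. Of its 5 genes 2 were called lower and 0 higher. The part of these shifts in the levels of Smoc2, Cd44 and the other members was not tested.

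The tumour calls rest on 7 libraries. Without WT proximal colon replicate 1 only Tnfrsf19 remained called (adjusted p = 0.033), while the log2 fold changes of Ascl2 (-2.30), Smoc2 (1.81), Cd44 (1.00) and Ephb2 (0.97) kept their size at adjusted p from 0.0541 to 0.0648. With a term for sex read from Ddx3y, 0 of the 10 members were called in tumours, with log2 fold changes of -2.49 for Ascl2 (adjusted p = 0.155), -1.94 for Tnfrsf19 (adjusted p = 0.125), 0.92 for Ephb2 (adjusted p = 0.126), 1.31 for Cd44 (adjusted p = 0.0712) and 1.04 for Smoc2 (adjusted p = 0.159). Ddx3y was over 10 CPM in 0 of the 3 WT libraries and in every tumour but BA tumour 1. The genotype effect in that fit therefore rests on BA tumour 1 against WT. The fit cannot decide how far sex bears on these members.

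Olfm4 (chr14:79984081-80023139), a secreted glycoprotein that marks stem cells in the small intestine, was at or near 0 in most colon libraries. It had 0 counts in all 5 d30 BA libraries, which allows a level of up to about 0.173 CPM at their median depth, and d30 WT and antibiotics libraries were at 0.0682 CPM or less. The gene fell below the low-count filter and was not tested by edgeR in the comparisons between d30 groups. In BA tumours it was at 0.0903, 18.2, 1.42 and 0.203 CPM and in WT proximal colon at 0.0323, 0.0588 and 1.66 CPM, which overlapped (log2 fold change 3.06 ± 1.82, adjusted p = 0.313). Apart from BA tumour 2, values above 10 CPM were found in A replicates 1 and 3 (21.9 and 12.3 CPM), whereas the other 2 A libraries were at 0.122 and 0.156 CPM. Among all genes of the colon libraries, that most like Olfm4 was Defa24, an α-defensin of small intestinal Paneth cells, with r = 0.90 over 29 libraries that share this stretch of bowel. Defa24 was at 157.4 CPM in BA tumour 2, 51.6 CPM in BA tumour 3, 16 CPM in A replicate 1 and 8.22 CPM in A replicate 3. Exons of Gm6999 on the same strand overlap those of Olfm4, with 4.03% of 36-base words shared.

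**Figure D3:**
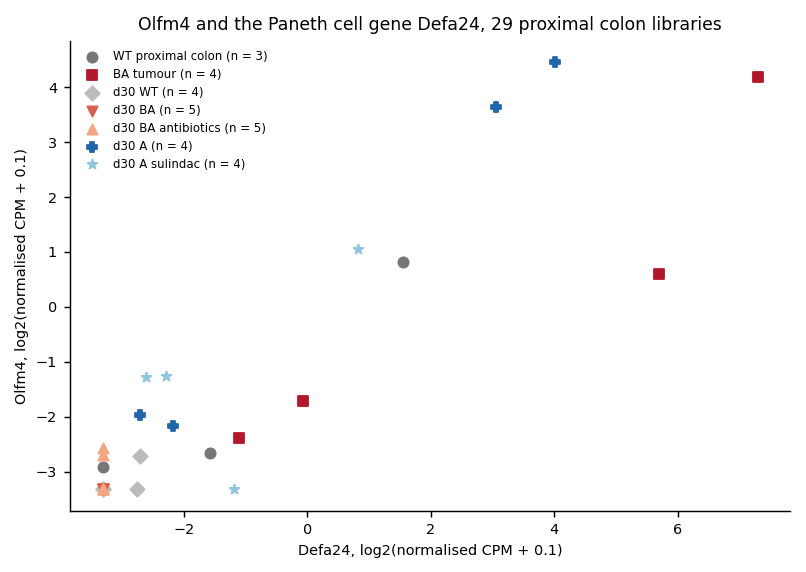
Olfm4 against the Paneth cell gene Defa24 in the 29 proximal colon libraries, both as log2(normalised CPM + 0.1), 1 point per library and 1 symbol per group. The libraries with most Olfm4 (A replicates 1 and 3 and BA tumour 2) lie at 16, 8.22 and 157.4 CPM of Defa24, and the 5 d30 BA libraries lie together at 0 Olfm4.

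Whether the effect of the BA genotype differed between tumours and d30 tissue was tested as a difference of 2 log2 fold changes. 3 of the 10 members differed, where 16.3% of 20637 genes did (9.87% higher in tumours and 6.46% lower). Smoc2 was raised more in tumours (difference 1.69 ± 0.36, adjusted p = 0.00458) and so was Cd44 (difference 0.89 ± 0.19, adjusted p = 0.00442). Ascl2 was lowered more in tumours (difference -1.42 ± 0.47, adjusted p = 0.048), a call that held without BA tumour 1, BA tumour 2 or WT proximal colon replicate 3 and was lost without any of the other 13 libraries (adjusted p up to 0.114) or when scaled by library totals (adjusted p = 0.077). For Prom1 the difference was 0.09 (95% interval -0.59 to 0.77) and for Ephb2 0.26 (95% interval -0.08 to 0.59). Msi1 had a difference of 1.27 ± 0.65 (adjusted p = 0.20), Tnfrsf19 of -0.64 ± 0.47 (adjusted p = 0.389) and Sox9 of 0.40 ± 0.28 (adjusted p = 0.355), none of them called. Tissue content differed as well. Higher in tumours were 4 of the 6 fibroblast, 4 of the 6 immune, 3 of the 4 neutrophil and 2 of the 3 endothelial genes. Of the 8 epithelial genes 5 were lower and 0 higher. Ddx3y was unbalanced on the tumour side only, and no sex term was fitted for this difference. The part of these shifts in the members' differences was not tested.

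Without BrafV600E, loss of Alk5 was accompanied by no call among the members. In d30 A tissue 0 of the 9 members tested were called by edgeR, where 0.141% of 17713 genes were (25 genes, with 1717 at an unadjusted p under 0.05), and DESeq2, run without the low-count filter, called 1, Olfm4, which was above 1 CPM in A replicates 1 and 3 only. The log2 fold changes ran from -0.26 for Tnfrsf19 (95% interval -0.67 to 0.15) to 0.41 for Ascl2 (95% interval 0.01 to 0.82). In A mice given sulindac 0 of 9 were called, against 0.0507% of all genes tested (9 genes, with 1607 at an unadjusted p under 0.05), and the estimates ran from -0.74 for Tnfrsf19 (± 0.30, adjusted p = 0.529) to 0.33 for Sox9 (± 0.18, adjusted p = 0.593). Lgr5 with sulindac was at 6.36, 5.28, 15.3 and 7.37 CPM, 1 library standing above every d30 WT library and 3 below. The groups overlapped for all 9 members in both comparisons, against 4.69% and 5.11% of all genes with no overlap. Between sulindac-treated and untreated A mice 0 members and 0% of 17568 genes were called, with 460 genes at an unadjusted p under 0.05 and 7 called by DESeq2, none of them a member. With no overlap stood 1.8% of all genes and 0 of the 9 members. The estimates ran from -0.46 for Tnfrsf19 (95% interval -1.07 to 0.14) to 0.32 for Prom1 (95% interval -0.21 to 0.85), and the interval for Lgr5 was -0.55 to 0.70.

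Against A tissue on the same day, d30 BA tissue differed in 6 of the 9 members tested, 3 lower and 3 higher, where 45.3% of 17128 genes were called (21.7% higher and 23.6% lower). The groups did not overlap for 5 of the 9, against 36.1% of all genes. Ascl2 was at 6.97, 5.06, 4.34 and 4.67 CPM in A mice, all above the highest d30 BA library at 2.43 CPM (log2 fold change -1.56 ± 0.21, adjusted p = 0.000195). Msi1 was at 2.44, 2.38, 2.90 and 2.91 CPM in A mice, again above all BA libraries (log2 fold change -1.30 ± 0.21, adjusted p = 0.000514). Tnfrsf19 was at 4.4, 5, 7.01 and 6.13 CPM, without overlap (log2 fold change -1.17 ± 0.32, adjusted p = 0.0116). Prom1 (log2 fold change 1.36 ± 0.13, adjusted p = 1.83e-05) and Ephb2 (0.62 ± 0.12, adjusted p = 0.00136) were higher without overlap. Sox9 (0.36 ± 0.13, adjusted p = 0.0357) was also called, but its groups overlapped, A replicate 4 being at 34.2 CPM, and the call was lost with all 5 d30 groups in 1 fit (adjusted p = 0.112) and without d30 BA replicate 1, 2 or 3 or A replicate 1 or 2 (adjusted p up to 0.0763). For Lgr5 the log2 fold change was -0.53 ± 0.21 (adjusted p = 0.0562), and without A replicate 4, the lowest of its group at 5.82 CPM, it was -0.63 (adjusted p = 0.0291). Without d30 BA replicate 5 it was -0.62 (adjusted p = 0.0436). Smoc2 (0.02, 95% interval -0.23 to 0.27) and Cd44 (0.04, 95% interval -0.23 to 0.31) were not called. Tissue content moved here as well, with 7 of the 8 epithelial genes higher (list median 0.78). Lower were 3 of the 4 enteric glia and neuron genes, 3 of the 6 fibroblast genes and all 3 Paneth genes tested. The part of these shifts in the members' levels was not tested.

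Antibiotics given to BA mice changed 3 of the 9 members tested, where 13% of 16680 genes were called (4.53% higher and 8.5% lower), and the groups did not overlap for 2 of the 9, against 10.7% of all genes. Prom1 was at 755.2 to 1082.7 CPM with antibiotics and at 1388.2 to 1622.3 CPM without, with no overlap (log2 fold change -0.78 ± 0.09, adjusted p = 0.000709). Sox9 was at 17.6 to 28.8 CPM with antibiotics and at 32 to 36.5 CPM without, also with no overlap (log2 fold change -0.58 ± 0.13, adjusted p = 0.0138). Smoc2 rose by 0.63 on the log2 scale (± 0.17, adjusted p = 0.0361) with overlapping groups, a call lost without antibiotics replicate 4 or 5 or d30 BA replicate 1, 2, 4 or 5 (adjusted p up to 0.0891) or with all 5 d30 groups in 1 fit (adjusted p = 0.0584). The estimate for Ephb2 was -0.28 ± 0.08 (adjusted p = 0.0504), and it passed without antibiotics replicate 4 or d30 BA replicate 4 (adjusted p down to 0.0433). For the members that were lower in BA tissue, the differences between antibiotics and no antibiotics were -0.25 for Lgr5 (95% interval -0.77 to 0.27), 0.26 for Ascl2 (-0.27 to 0.79), 0.15 for Msi1 (-0.51 to 0.81) and 0.68 for Tnfrsf19 (-0.16 to 1.51), none of them called. Without antibiotics replicate 3, the library rich in fibroblast transcripts, that of Msi1 was -0.25 (adjusted p = 0.536) and that of Tnfrsf19 0.32 (adjusted p = 0.603). Cd44 was at 0.08 (95% interval -0.10 to 0.26). The comparisons of d30 BA and of antibiotics with WT share their WT libraries and this one shares its BA libraries, so that the values are side by side and not independent.

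In the small intestinal groups with floxed Apc, the members lower in BA tissue were higher than in WT, apart from Msi1 in Apcfl/+ tumours. In day 4 VilCreER+ APCfl/fl small intestine all 10 members were higher than in day 4 WT, where 54.2% of 17536 genes were called with 27.5% higher, and their median log2 fold change was 2.21 beside 0 over all genes. The groups did not overlap for 8 of the 10, against 16.9% of all genes, and all 10 stayed called without replicate 1, the library with the smallest total, or without replicate 8, the library with the least Apc. The changes ran from 1.13 for Smoc2 (± 0.18, adjusted p = 8.02e-05) to 3.27 for Tnfrsf19 (± 0.30, adjusted p = 4.73e-07). Tnfrsf19 had a lowest, median and highest level of 32.7, 68.8 and 97.3 CPM in APCfl/fl tissue and of 4.05, 6.48 and 9.08 CPM in WT tissue. Lgr5 was at 19.5, 57.5 and 103.1 CPM against 9.20, 12.6 and 14.8 CPM (log2 fold change 2.25 ± 0.28, adjusted p = 8.1e-06), and the groups did not overlap. Ascl2 rose by 2.41 ± 0.26, Sox9 by 2.48 ± 0.20, Cd44 by 2.37 ± 0.23, Msi1 by 2.17 ± 0.30 and Prom1 by 1.27 ± 0.13 on the log2 scale. Olfm4, abundant in this tissue, was at 659.2 to 2436.9 CPM against 445.8 to 834.6 CPM, and Ephb2 at 55.3 to 173.7 CPM against 28.8 to 76.2 CPM. These 2 members overlapped between the groups although both were called (log2 fold changes of 1.35 and 1.37). Other lists moved with the members: all 6 proliferation genes were higher (summed to 721.8 to 1267.1 CPM against 372 to 625.5 CPM). All 5 enterocyte genes (2269 to 7358.4 CPM against 10958.5 to 22106.4 CPM), 4 of the 6 immune genes, 3 of the 4 enteric glia and neuron genes and all 3 endothelial genes were lower. The part of these shifts in the members' levels was not tested.

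**Figure D4:**
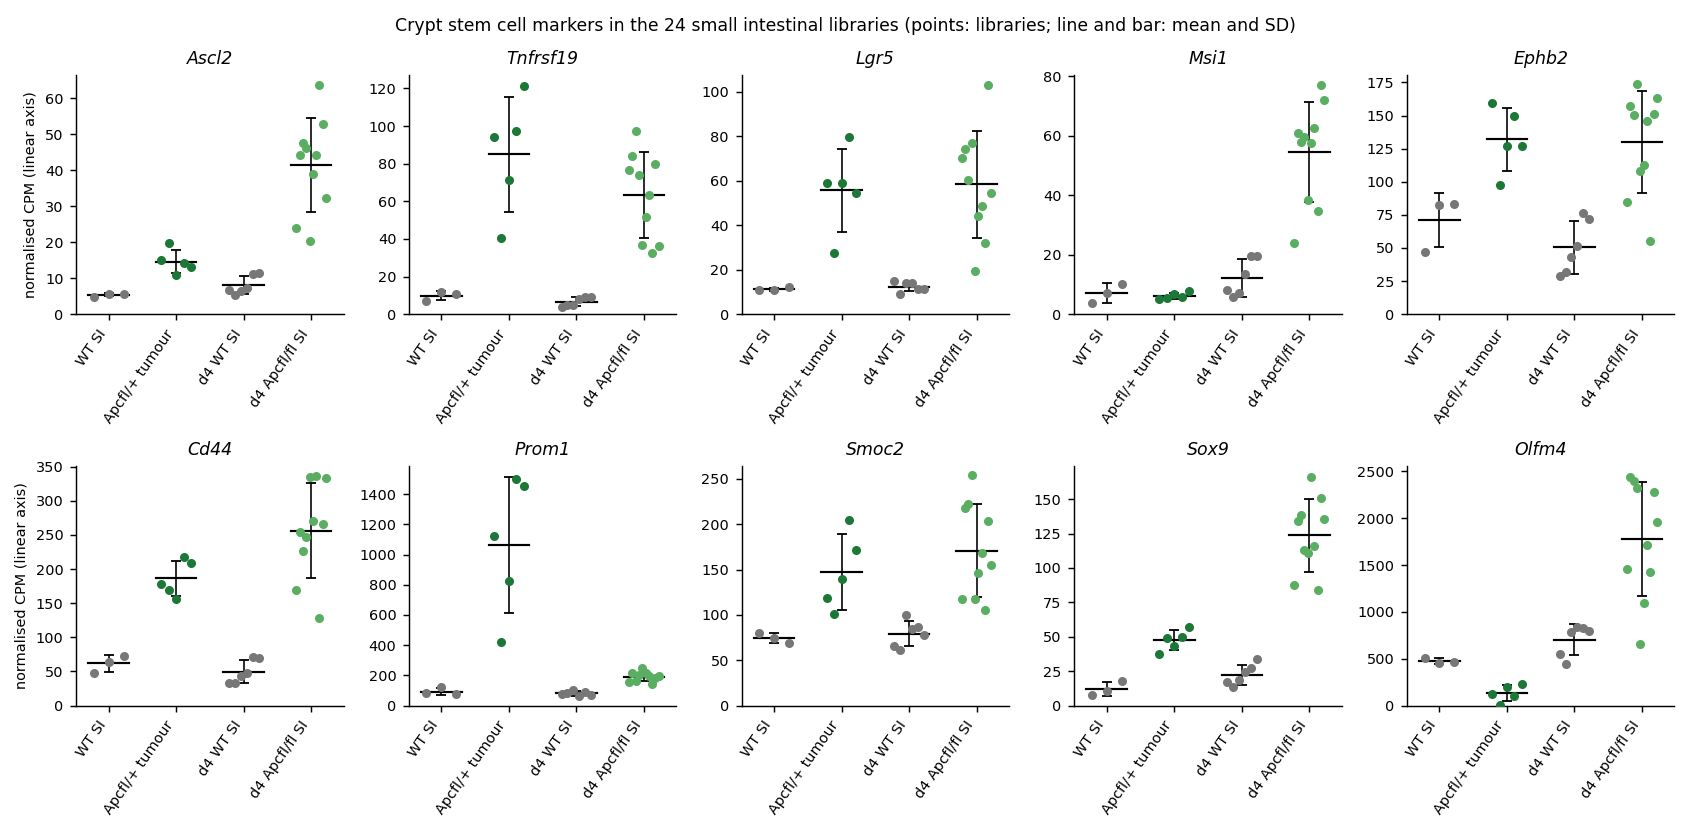
Normalised CPM (linear axes from 0) of the 10 markers in the 24 small intestinal libraries, 1 point per library, with the group mean and SD as line and bar. Tnfrsf19 and Lgr5 are above their WT in every APCfl/fl and Apcfl/+ library, Msi1 is high on day 4 (23.9 to 76.9 CPM) but not in Apcfl/+ tumours (5.13 to 7.65 CPM), and Olfm4 is lower in the tumours.

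In Apcfl/+ tumours 8 of the 10 members were higher than in WT SI, where 61.5% of 20567 genes were called with 31.4% higher. Olfm4 and Msi1 were not called. The groups did not overlap for 9 of the 10, against 59.2% of all genes. Lgr5 was at 58.8, 27.5, 58.9, 79.7 and 54.3 CPM in the tumours and at 11, 10.8 and 12.1 CPM in WT SI, without overlap (log2 fold change 2.41 ± 0.31, adjusted p = 0.000296). Prom1 was at 1122.9, 423.2, 826.5, 1499.1 and 1454.2 CPM against 80.9, 119.7 and 76.6 CPM, the largest change of the set (log2 fold change 3.63 ± 0.46, adjusted p = 0.000273). Tnfrsf19 was at 94.3, 40.5, 71.3, 97.1 and 121.5 CPM against 7.17, 11.7 and 10.5 CPM (log2 fold change 3.22 ± 0.37, adjusted p = 0.000183). Ascl2 rose by 1.54 ± 0.20, Sox9 by 2.09 ± 0.27, Cd44 by 1.70 ± 0.18, Smoc2 by 1.09 ± 0.22 and Ephb2 by 1.00 ± 0.23 on the log2 scale. With a term for sex read from Ddx3y, 7 remained called, and Smoc2 did not (0.79, adjusted p = 0.0907). The genotype effect in that fit rests on Apcfl/+ tumour 1, the only one of these tumours over 10 CPM of Ddx3y, as all 3 WT SI were. Msi1 did not differ detectably (log2 fold change -0.09, 95% interval -0.68 to 0.49). Of the content lists, 5 of the 6 fibroblast genes (summed to 2776.4 to 3495.6 CPM against 1135.6 to 1477.4 CPM), 3 of the 4 neutrophil genes and 4 of the 6 proliferation genes were higher. Lower were 3 of the 5 enterocyte genes, 3 of the 6 immune genes and 3 of the 4 enteric glia and neuron genes. The part of these shifts in Smoc2, Cd44 and the other members was not tested.

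Olfm4 was the exception among the small intestinal comparisons. It was at 127.8, 0.743, 200, 104.5 and 227.1 CPM in the Apcfl/+ tumours and at 511.4, 453.8 and 465.1 CPM in WT SI, so that every tumour lay below every WT library, yet the log2 fold change of -1.75 ± 1.00 was not called (adjusted p = 0.159). Tumour 2, which nearly lacked both Olfm4 and enterocyte transcripts and had the colonocyte gene Car1 at 167.1 CPM against 0.58 CPM or less in the other tumours, widened the spread. Without it, the log2 fold change of Olfm4 was -1.42 (adjusted p = 0.000917), and the other 8 calls were unaltered, with log2 fold changes from 1.09 for Ephb2 to 3.83 for Prom1.

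BA and Apcfl/+ tumours were compared through the difference of their log2 fold changes, each against its own WT. 5 of the 10 members were called, all lower in the BA effect, where 39.7% of 21668 genes were called (17.7% lower). The difference was -5.29 for Tnfrsf19 (± 0.48, adjusted p = 1.2e-05), -4.12 for Ascl2 (± 0.49, adjusted p = 8.56e-05) and -2.84 for Lgr5 (± 0.46, adjusted p = 0.000563). Prom1, whose estimate was positive in both tumour types, differed by -2.34 ± 0.58 (adjusted p = 0.00688), and Sox9 by -1.23 ± 0.40 (adjusted p = 0.0244). The call of Sox9 was lost without WT proximal colon replicate 3 or without WT SI replicate 1 (adjusted p up to 0.0728) and with scaling by library totals (adjusted p = 0.0523). Without Apcfl/+ tumour 2, whose markers of bowel region were mixed, these 5 members stayed called (adjusted p up to 0.0142). The differences were then -5.59 for Tnfrsf19, -4.11 for Ascl2, -3.13 for Lgr5, -2.65 for Prom1 and -1.36 for Sox9. Ephb2 had log2 fold changes of 1.07 and 1.00, with a fitted difference of 0.10 (95% interval -0.45 to 0.65). Cd44 differed by -0.54 ± 0.25 (adjusted p = 0.0998) and Smoc2 by 0.84 ± 0.39 (adjusted p = 0.101), neither called. Olfm4 differed by 4.75 ± 2.15 (adjusted p = 0.0901) and Msi1 by 0.20 ± 0.70 (adjusted p = 0.841), also not called. Cd44 passed without BA tumour 1, Apcfl/+ tumour 2 or Apcfl/+ tumour 3 (adjusted p down to 0.0356), and Smoc2 without BA tumour 1 (adjusted p = 0.0496). These tumours differ in bowel region and genetic background as well as in genotype. Ddx3y and Gm13394 were over 10 CPM in more BA tumours than their WT, and in fewer Apcfl/+ tumours than their WT. No sex term was fitted for the difference of effects, and these factors cannot be told apart.

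**Figure D5:**
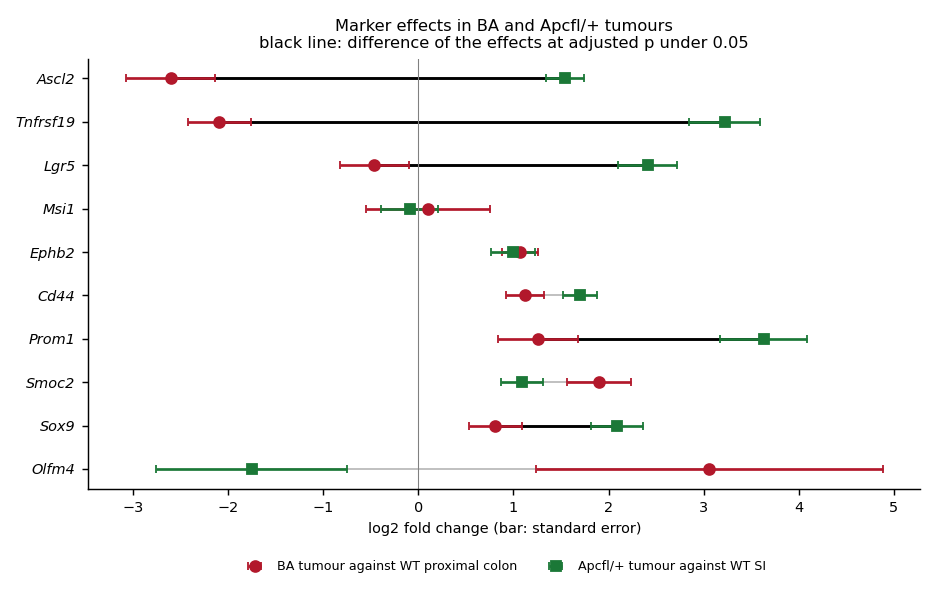
Log2 fold change (x axis, bar for the standard error) of each marker in BA tumours against WT proximal colon (circles) and in Apcfl/+ tumours against WT SI (squares), joined by a black line where the difference of the effects passed an adjusted p of 0.05. Ascl2, Tnfrsf19 and Lgr5 are joined across 0, Prom1 and Sox9 on its positive side, and the 2 symbols of Ephb2 coincide near 1.

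Between genes, levels are compared as CPM per kb of exon. In d30 WT colon Prom1 led with 93.3 CPM per kb, followed by Cd44 at 12.1, Sox9 at 6.08, Ephb2 at 5.10, Smoc2 at 2.79, Ascl2 at 2.45, Tnfrsf19 at 1.44, Lgr5 at 0.891 and Msi1 at 0.423 CPM per kb, with Olfm4 at the floor. In WT SI the order was headed by Olfm4 at 161.0 CPM per kb, with Prom1 at 12.9 and Lgr5 at 1.10 CPM per kb. The 4 members that fell in BA tissue were thus the 4 least abundant of those detected in d30 WT colon, and the gap between Smoc2 and Ascl2 was narrow.

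Ordered by mean level over the 11 groups, Ascl2 was lowest in BA tumours (1.09 ± 0.478 CPM, SD, n = 4), d30 BA (1.75 ± 0.437, n = 5) and antibiotics (2.1 ± 0.806, n = 5), and the next group, d30 WT, did not overlap the last of these. Tnfrsf19 was likewise lowest in BA tumours (2.36 ± 0.731 CPM, n = 4) and d30 BA (2.51 ± 1.09, n = 5), but neighbours overlapped all along the order from WT proximal colon (9.85 ± 0.782, n = 3) downwards. Lgr5 was lowest with antibiotics (4.67 ± 1.77 CPM, n = 5) and in BA tumours (4.87 ± 1.26, n = 4), which overlapped d30 BA and WT proximal colon, and highest in day 4 APCfl/fl tissue (58.4 ± 24.1, n = 10) and Apcfl/+ tumours (55.8 ± 18.7, n = 5), which overlapped each other. Ephb2 had its highest mean in BA tumours (159.9 ± 10.7 CPM, n = 4), overlapping Apcfl/+ tumours (132.2 ± 23.8, n = 5). Prom1 had its highest mean in d30 BA (1508.0 ± 101.4 CPM, n = 5), overlapping BA tumours and Apcfl/+ tumours, and was lowest in WT SI and day 4 WT SI, which also overlapped.

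Within the 29 proximal colon libraries the correlations between members that fell and members that rose were negative but uneven, and the group differences above already bear on them. Among members that fell, Pearson's r of log2 CPM ran from 0.37 for Lgr5 with Tnfrsf19 to 0.69 for Ascl2 with Tnfrsf19, with 0.49 between Ascl2 and Lgr5. Among members that rose it ran from 0.14 for Smoc2 with Sox9 to 0.80 for Cd44 with Ephb2. Between the 2 sets r ran from -0.81 for Ascl2 with Ephb2 to -0.05 for Lgr5 with Sox9, with Msi1 also near 0 for Sox9 (-0.07) and Cd44 (-0.10). The genes most like each member over the same libraries, of 21093 expressed genes, were Otc for Ascl2 (r = 0.93), Ptgfr for Tnfrsf19 (r = 0.89), Lrrc66 for Prom1 (r = 0.93), Gm1673 for Ephb2 (r = 0.94), Tex10 for Cd44 (r = 0.88), Wipf3 for Msi1 (r = 0.87), Plat for Smoc2 (r = 0.90), Epb41 for Sox9 (r = 0.81) and Gm43824 for Lgr5 (r = 0.78). The libraries share groups and tissue content, and these values describe likeness only. After Plat, the genes most like Smoc2 were Ltbp2 (r = 0.90) and Igfbp7 (r = 0.89). After Ptgfr, those most like Tnfrsf19 were Cacnb2 (r = 0.89) and Hmcn2 (r = 0.88). The part of tissue content in these likenesses was not tested.

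A further list of 14 genes of the crypt base and of Wnt feedback was set beside the members. In d30 BA 7 were lower and 1 higher, where 29.3% of all genes were lower and 25.8% higher, with a median log2 fold change of -0.30: Axin2, the feedback inhibitor of β-catenin, was at -0.91 (adjusted p = 2.9e-05), Znrf3 at -0.62 and Rnf43 at -0.59, both ligases that remove Wnt receptors, and the zinc finger factor Sp5 at 1.5 (adjusted p = 0.0013). With antibiotics the counts were again 7 lower and 1 higher (Sp5), where 17.8% of all genes were lower and 21.8% higher. In BA tumours, where 5.71% of all genes were lower and 7.46% higher, 1 was lower, the BMP co-receptor Rgmb (-1.11, adjusted p = 0.0175), and 3 were higher, among them Mex3a (1.54, adjusted p = 0.0159) and Rnf43 (0.90, adjusted p = 0.0206). In day 4 APCfl/fl tissue 13 of the 14 were higher (27.5% of all genes), and in Apcfl/+ tumours 10 were higher (31.4% of all genes) and 1 lower (Cdk6, -0.41, adjusted p = 0.0494). Of 5 genes linked to reserve or revival stem cells, Anxa1 was higher by 3.52 (adjusted p = 1.5e-08) and Bmi1 by 0.82 (adjusted p = 1.57e-05) in d30 BA on the log2 scale, Clu was higher by 4.79 (adjusted p = 0.00128) in BA tumours, and Hopx was lower in both (-0.27, adjusted p = 0.0168, and -0.99, adjusted p = 0.0449). Such rises were not particular to BA tissue. In day 4 APCfl/fl tissue 4 of the 5 were higher and 0 lower, and so it was in Apcfl/+ tumours, beside the shares of all genes above. On day 4, however, Anxa1 had a median of 20.3 CPM against 19.3 CPM in WT. The median of Clu was 71 CPM against 20.4 CPM, with the highest APCfl/fl library at 1525.4 CPM. Anxa1 averaged 195.9 CPM in Apcfl/+ tumours against 14.2 CPM in WT SI. Clu averaged 1701.9 CPM in Apcfl/+ tumours against 36.5 CPM in WT SI.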

How the data were processed

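RNA was measured in 53 libraries from whole proximal colon (29) and small intestine (24). The authors trimmed paired reads of 36 bases with Trim Galore 0.6.4, aligned them to GRCm38 with HISAT2 2.1.0 and deposited a matrix of raw read counts per Ensembl gene from featureCounts 1.6.4, with no normalisation, and FastQC 0.11.8 is also named in the submitters' notes. The strand and multiple-alignment settings of the counting are not given in the sources used here. Of 55421 rows, 55240 were matched to a symbol. Library totals ran from 516985 to 32824795 counts, and floors cover counting error only. The intervals come from the quasi-likelihood F test described below, which also takes in the spread between libraries.

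Groups were taken from the sample labels. Each comparison was fitted on its own groups with edgeR 4.0.16 in R 4.3.3 (filterByExpr, TMM factors, two-sided quasi-likelihood F test), and Benjamini-Hochberg adjustment ran over all genes tested with a threshold of 0.05. A difference of effects was fitted as an interaction over 4 groups. Standard errors are the log2 fold change divided by the root of F, and 95% intervals are normal ones around them, slightly narrower than the F test implies. Levels are CPM scaled by TMM factors over all 53 libraries, and levels per kb use exon length. The study itself used DESeq2, which served here as an alternative (version 1.42.0), beside limma voom (limma 3.58.1), RLE size factors, library totals, no low-count filter, a replicate block, a sex term, all d30 groups in 1 fit, and leaving out libraries. In groups of over 5 libraries only d4 APCfl/fl replicates 1 and 8 were left out.

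Members were given in each comparison by value or, for A tissue, by range, except Olfm4 where it was not tested or both groups stood near 0. From each other list the extremes in log2 fold change and at most 4 further genes were eligible for naming, and likeness to a member was limited to the 3 genes of highest Pearson r over the 29 colon libraries. The members and lists were chosen with earlier results of these data known. No library pair held identical counts. Same-numbered samples were checked for shared deviations: no comparison had r over 0.1 in every pair, so that the numbers were not taken to pair samples. On simulated counts with 200 genes changed by 2 on the log2 scale, 82.5% were recovered for BA tumours against WT proximal colon (18729 genes), 100% for d30 BA against d30 WT (17228 genes), 99% for day 4 APCfl/fl against WT (17307 genes) and 50% for the difference between BA and Apcfl/+ tumours (21123 genes). Unchanged genes made up 2.94%, 4.31%, 5.26% and 7.41% of the calls, in the same order. The changed genes were drawn from those with higher counts. Counts were simulated with the spread read from the trend over all genes, not with each gene's own spread. Single outlying libraries were therefore not imitated, and recovery in the data could be lower. Smaller changes, such as those of all members in d30 BA, were not simulated. Promoter windows came from RefSeq (GRCm38.p6).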

Additional observations from a re-analysis of the deposited data

Results flagged for a closer look

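In 3 of 87 groups of 4 to 10 libraries, 1 library lay far from the others of its group by Dixon's gap criterion at the 95% level, which chance alone marks in about 1 group in 20. BA tumour 2 was high for Olfm4 (18.2 CPM, the next tumour at 1.42 CPM) and for Msi1 (3.77 CPM, the next at 1.17 CPM), and the same library had the largest Paneth list sum among the colon libraries. A sulindac replicate 4 was high for Olfm4 (1.98 CPM, the next library at 0.315 CPM) and held Defa24 at 1.66 CPM.

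The effect of genotype differed between settings for 7 members by the interaction test. Between BA tumours and d30 BA tissue, the log2 fold changes differed by -1.42 for Ascl2, 1.69 for Smoc2 and 0.89 for Cd44. Between BA and Apcfl/+ tumours, they differed by -2.84 for Lgr5, -4.12 for Ascl2, -2.34 for Prom1, -5.29 for Tnfrsf19 and -1.23 for Sox9.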

How the results depend on the processing

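No called value changed sign under any alternative run. Of the single-member values, 738 kept their call, 6 gained one and 26 lost one under other settings, and 970, 11 and 44 did so when a library was left out. Counts of called members moved past 1.5 times in these cases, and the cause was not tested. The replicate block took BA tumours against WT from 5 to 3, antibiotics against WT from 7 to 4, the difference between BA tumours and d30 BA from 3 to 1 and that between BA and Apcfl/+ tumours from 5 to 3. The block gave 8 for d30 BA, 10 for day 4 APCfl/fl, 7 for Apcfl/+ tumours (Ephb2 not called, 0.97, adjusted p = 0.0649), 7 for d30 BA against A, 3 for antibiotics against d30 BA and 0 for the 3 comparisons of A tissue, and the numbers do not pair the samples by the check above. The sex term took BA tumours to 0, with 168 of all genes still called, in a fit where the genotype effect rests on BA tumour 1. In d30 A against WT, 1 member was called without a low-count filter and 1 with DESeq2, both times Olfm4.

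Leaving out 1 library in turn gave counts of 1 to 6 for BA tumours, 7 to 8 for d30 BA, 5 to 8 for antibiotics, 8 to 9 for Apcfl/+ tumours, 5 to 7 for d30 BA against A, 2 to 3 for antibiotics against d30 BA, 2 to 3 and 4 to 7 for the differences of effects, 10 for day 4 APCfl/fl and 0 for the A comparisons. Scaling by library totals moved the median of all genes to -0.18 in d30 BA, -0.28 against A, -0.10 with antibiotics and 0.27 on day 4. Of the calls over all genes, the higher ones were then 2949 of 9730 in place of 4516 of 9634 in d30 BA, 24.7% in place of 48% against A, 39.9% in place of 55% with antibiotics, 51.4% in place of 34.8% for antibiotics against d30 BA, 71% in place of 50.7% on day 4 and 78.8% in place of 60.4% for BA tumours minus d30 BA. Under this scaling Sox9 was not called in d30 BA against A (0.13, adjusted p = 0.418) and Lgr5 was (-0.76, adjusted p = 0.00938). RLE factors for the differences of effects were added after the data were seen and gave 3 and 5.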
